A study of Homo sapiens with 6 samples.

Results

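The E2F factors and their DP partners are transcription factors that activate or repress genes, among them those of S phase. All 10 genes chosen by symbol, E2F1 to E2F8, TFDP1 and TFDP2, were measured, each by 1 probe set that the platform annotation pairs with that gene alone, among 18376 named genes tested. The RNA came from PC3 cells, an established androgen-independent human prostate cancer line, on 6 whole-transcript Affymetrix arrays labelled from 100 ng of total RNA each. On 3 arrays the cells expressed miR-34c ectopically, and on 3 they expressed a scramble mimic, the control. The sample labels and the series title name miR-34c, whereas the series' design text names miR-205, and the grouping here follows the samples' own labels. The labels give no dose, no time after delivery and no origin of the replicates from separate cultures, so the spread behind each p-value is that of these arrays and may be technical, and their number limits the precision.

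E2F proteins bind DNA as pairs with a DP protein, TFDP1 or TFDP2. E2F1, E2F2 and E2F3 are held inactive by the retinoblastoma protein RB1 until G1 cyclins and their kinases phosphorylate it, and then activate genes of DNA replication. E2F4 and E2F5 act mainly as repressors together with the RB1 relatives RBL1 and RBL2 in resting cells. E2F6 represses through Polycomb proteins without any RB1 relative, and E2F7 and E2F8 repress as dimers that need no DP partner. The miR-34 family is induced by p53 and lowers many cell cycle messengers, E2F3 and E2F5 being described among its targets, and PC3 cells lack functional p53.

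Mature sequences of the miR-34 and miR-449 families and of miR-205 are shown because the seed, bases 2 to 8, in capitals, largely sets which messengers a microRNA binds. They are from RefSeq, GRCh38.p14. The miR-34b and miR-34c hairpins lie on chromosome 11, and the mature arms shown are miR-34b-5p at chr11:111512950-111512972, plus strand and miR-34c-3p at chr11:111513484-111513505, plus strand. miR-34a-5p lies at chr1:9151735-9151756, minus strand, miR-449a at chr5:55170586-55170607, minus strand, and miR-205-5p at chr1:209432166-209432187, plus strand.
hsa-miR-34a-5p: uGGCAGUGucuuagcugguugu
hsa-miR-449a: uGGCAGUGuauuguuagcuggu
hsa-miR-34b-5p: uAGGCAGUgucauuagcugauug
hsa-miR-34c-3p: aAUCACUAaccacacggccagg
hsa-miR-205-5p: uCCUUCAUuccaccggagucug
miR-34a-5p, miR-449a and miR-449b-5p shared 1 seed. The seed of miR-34b-5p, found in 3 mature names with miR-449c-5p among them, overlaps it, moved by 1 base. The seeds of miR-34c-3p and miR-205-5p were each found in 1 mature name of the table. For miR-34c the sequence shown is the 3p arm alone, and miR-34c-5p was not used here. The labels do not say which arm of the miR-34c hairpin was delivered, so the 3p seed cannot be taken as that of the delivered microRNA.

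Of the 10 genes, E2F7 rose with miR-34c, E2F5 and TFDP2 fell, and 7 did not pass the test (limma, Benjamini-Hochberg adjusted p under 0.05 over all genes). E2F5 had the largest change, reaching 0.531 times its scramble level (a log2 change of -0.91 ± 0.16, SE, n = 3 per group, adjusted p = 0.00501). E2F7 was 1.45-fold higher (0.53 ± 0.07, SE, adjusted p = 0.00131), and TFDP2 was at 0.756 of the scramble level (-0.40 ± 0.09, SE, adjusted p = 0.0159). So 3 of 10 genes were called, where 15.7% of all genes tested were called, 7.67% higher and 8.01% lower. The median log2 change of the 10 genes was -0.17, against -0.03 over all genes, with 8 negative and 2 positive values. With each array centred on its median it was -0.14, against -0.0031 over all genes, with 7 negative and 3 positive values. Without scramble replicate 2 it was -0.098, against -0.0041 over all genes, with 7 negative and 3 positive values. These 10 genes were a fixed set of relatives, not a random draw, and no test compared them with other genes.

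**Figure D1:**
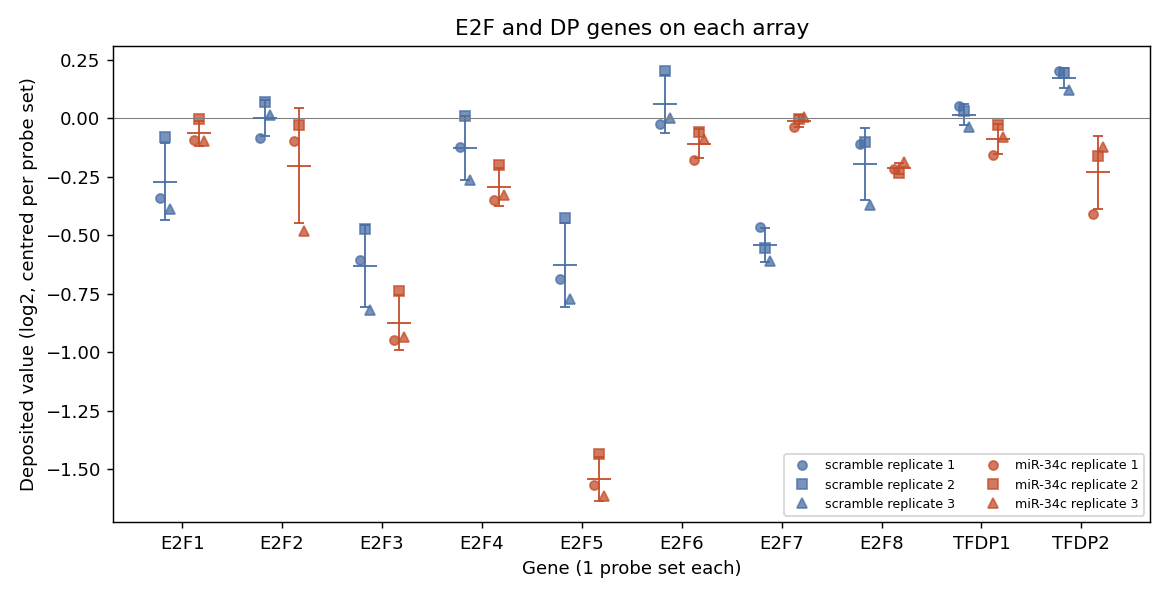
Deposited log2 values (vertical axis, centred per probe set) of the 10 E2F and DP genes on each of the 6 arrays, blue for scramble and red for miR-34c; horizontal marks are group means with SD bars (n = 3). The groups of E2F5, E2F7 and TFDP2 lie apart, by 0.66, 0.42 and 0.25, and heights of different genes cannot be compared.

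**Figure D2:**
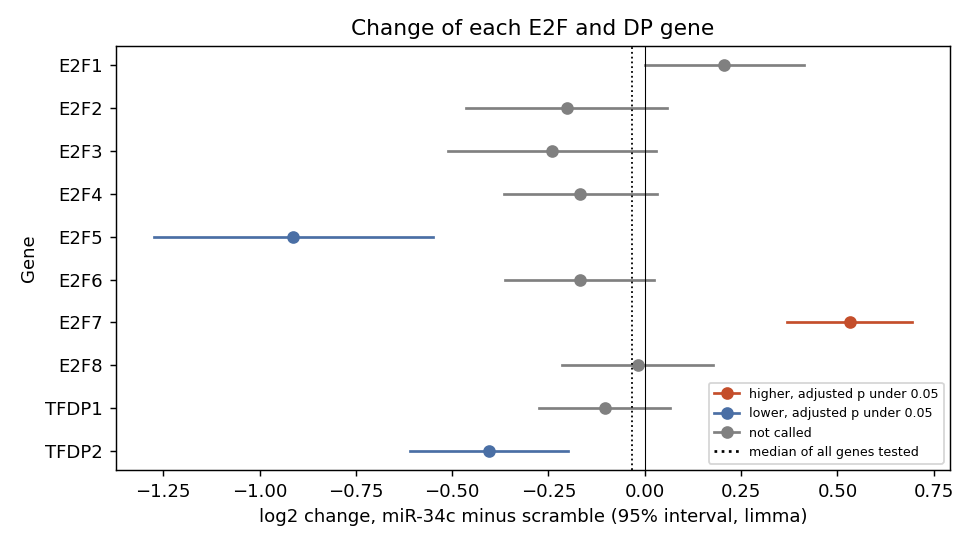
The log2 change of each gene (miR-34c minus scramble, horizontal axis) with its 95% interval from limma; red and blue mark genes called higher and lower, grey those not called, and the dotted line is the median of all 18376 genes, -0.03. The intervals of E2F5, E2F7 and TFDP2 lie clear of 0, and those of the other 7 genes cross it.

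The deposited values are RMA log2 values from which a reference of unknown origin was subtracted for each probe set, so they lie around 0 and say nothing about how abundant a messenger was. Only differences between arrays for the same gene can be read, and whether PC3 cells expressed a given gene, or the markers of the line, could not be checked from levels. The correlation over 28868 probe sets was 0.773 to 0.875 between arrays of a group and 0.557 to 0.699 between groups. Array medians ran from -0.030 to 0.062, the highest being scramble replicate 2. That array also held the highest scramble value in 7 of the 10 genes, and scramble replicate 3 the lowest in 8. Among the miR-34c arrays, replicate 2 was highest in 7 genes and replicate 1 lowest in 6. Interferon-stimulated genes rose with miR-34c in 35 of 36 measured members (median log2 change 2.70), and their part in the results below was not tested. None of 13 leukocyte markers passed by limma (smallest adjusted p 0.199, none at an unadjusted p under 0.05), and of 10 fibroblast markers PDGFRA fell (log2 change -0.48). Of 8 measured prostate luminal markers KRT8 rose and SLC45A3 and HOXB13 fell. The call of KRT8 was lost without miR-34c replicate 2 or 3 or scramble replicate 2 or 3 (adjusted p up to 0.129), that of HOXB13 without any array but scramble replicate 1 (up to 0.176), and that of SLC45A3 without miR-34c replicate 2 or 3 (up to 0.0662).

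None of the 3 activators passed the limma test, at an adjusted or an unadjusted p under 0.05. E2F1, which drives entry into S phase and can also trigger apoptosis, stood at -0.09, -0.0038 and -0.10 on miR-34c replicates 1 to 3, and at -0.34, -0.08 and -0.39 on scramble replicates 1 to 3. Scramble replicates 1 and 3 were below every miR-34c array, while scramble replicate 2 lay inside the miR-34c range. The log2 change was 0.21, with a 95% interval from -0.00065 to 0.41 (limma adjusted p = 0.173). Without scramble replicate 2 it was 0.30 and passed (adjusted p = 0.0296). With each array centred on its median it was 0.24 (adjusted p = 0.0708).

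E2F2, an activator that overlaps with E2F1 and E2F3 in its targets, read -0.10, -0.03 and -0.48 with miR-34c, and -0.08, 0.07 and 0.01 with the scramble mimic. The low mean of the miR-34c group came from replicate 3, while replicate 2 lay inside the scramble range and replicate 1 just below it. The log2 change was -0.20 (95% interval -0.46 to 0.06, adjusted p = 0.285 by limma), and -0.06 without miR-34c replicate 3.

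E2F3, the activator described as a target of the miR-34 family, had values of -0.95, -0.74 and -0.94 with miR-34c and of -0.61, -0.47 and -0.82 with the scramble mimic. All miR-34c arrays but replicate 2 lay below the scramble range, and replicate 2 lay above scramble replicate 3. The log2 change of -0.24 had a 95% interval of -0.51 to 0.03 and did not pass (limma adjusted p = 0.22). E2F3 makes a long and a short form from separate start sites, and its single probe set gave 1 value for both.

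E2F5 was the member with the largest change. On miR-34c replicates 1 to 3 it read -1.57, -1.44 and -1.62, and on scramble replicates 1 to 3 it read -0.69, -0.43 and -0.77. The groups were 0.66 apart, more than the 0.35 spanned by the scramble arrays and the 0.18 spanned by the miR-34c arrays. Only 0.185% of genes tested had a more negative log2 change. The 95% interval ran from -1.27 to -0.55. Leaving out each array in turn gave log2 changes from -0.98 to -0.81, with adjusted p-values of at most 0.022, and was -1.11 when the arrays were quantile-normalized again.

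E2F4, the other repressor that works with RBL1 and RBL2, stood at -0.35, -0.20 and -0.33 with miR-34c and at -0.12, 0.01 and -0.26 with the scramble mimic. The ranges met, since scramble replicate 3 was below miR-34c replicate 2. Its log2 change was -0.17 (95% interval -0.37 to 0.03, limma adjusted p = 0.249), and -0.10 without scramble replicate 2. On the same array, E2F5 minus E2F4 was -1.22, -1.23 and -1.29 with miR-34c and -0.56, -0.44 and -0.51 with the scramble mimic.

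E2F6, the Polycomb-linked repressor, read -0.18, -0.06 and -0.09 on the miR-34c arrays and -0.02, 0.20 and 0.0033 on the scramble arrays. The groups did not overlap, but the gap was 0.035, less than the 0.23 spanned by the scramble arrays. The log2 change was -0.17 (95% interval -0.36 to 0.02) and did not pass (limma adjusted p = 0.232), and it was -0.10 without scramble replicate 2. Groups that do not overlap were found in 4 of the 10 genes, 1 higher and 3 lower, and in 34.2% of all genes, 15.3% higher and 18.9% lower.

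E2F7 rose. This atypical E2F, itself a target of E2F activators, represses E2F1 and genes of S phase. Its values were -0.04, -0.0010 and 0.0070 with miR-34c and -0.46, -0.56 and -0.61 with the scramble mimic. The miR-34c arrays differed by only 0.046 among themselves, and each lay at least 0.42 above each scramble array. The 95% interval of the log2 change was 0.37 to 0.69, and 97.1% of all genes had a lower log2 change. Leaving out each array in turn gave log2 changes from 0.50 to 0.57, with adjusted p-values up to 0.00974.

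E2F8, the other atypical member, which acts with E2F7 in repressing E2F1, was at -0.22, -0.23 and -0.19 with miR-34c, and at -0.11, -0.10 and -0.37 with the scramble mimic. The miR-34c arrays lay inside the scramble range. The log2 change of -0.02 had a 95% interval of -0.21 to 0.18 (limma adjusted p = 0.915), and its sign was positive after median centring of the arrays (0.012) and without scramble replicate 1 (0.023) or 2 (0.028). E2F7 minus E2F8 within an array was 0.18, 0.23 and 0.20 with miR-34c and -0.35, -0.45 and -0.24 with the scramble mimic.

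Of the DP partners, TFDP2 fell. It read -0.41, -0.16 and -0.12 on the miR-34c arrays and 0.20, 0.19 and 0.12 on the scramble arrays. Replicate 1 was the lowest of the miR-34c arrays, and the groups lay 0.25 apart. The 95% interval of the log2 change was -0.61 to -0.20. The log2 change was -0.31 without miR-34c replicate 1 (adjusted p = 0.0487). The call was lost without scramble replicate 1 (-0.39, adjusted p = 0.0519).

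TFDP1, the more widely studied DP protein, read -0.16, -0.03 and -0.08 with miR-34c and 0.05, 0.03 and -0.04 with the scramble mimic. The groups overlapped narrowly, since scramble replicate 3 was just below miR-34c replicate 2. The log2 change was -0.10 (95% interval -0.27 to 0.06, limma adjusted p = 0.405). TFDP2 minus TFDP1 was -0.25, -0.13 and -0.05 with miR-34c and 0.15, 0.16 and 0.16 with the scramble mimic. TFDP3, a DP relative outside the 10 genes, had a log2 change of -0.13 (adjusted p = 0.327).

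**Figure D3:**
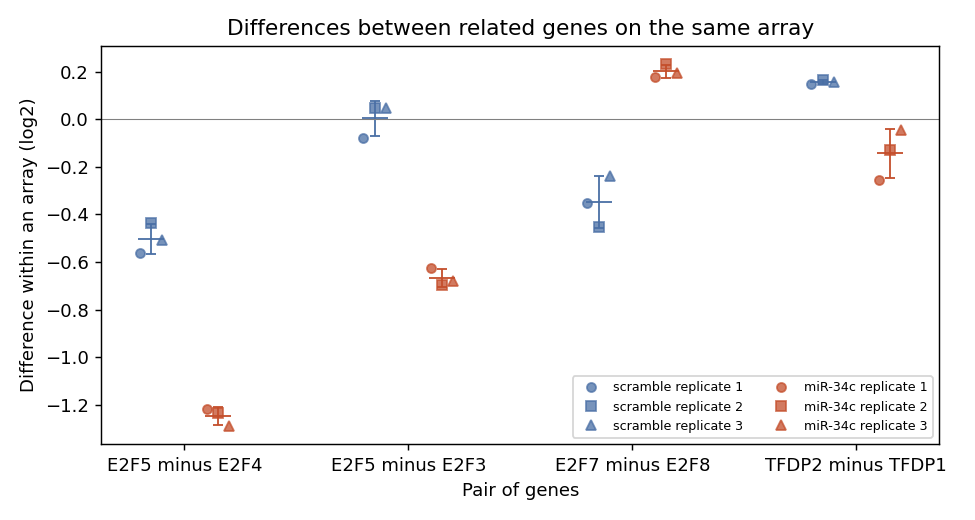
Differences between the deposited log2 values of 2 related genes on the same array (vertical axis), blue for scramble and red for miR-34c; horizontal marks are means with SD bars (n = 3). In each of the 4 pairs the groups lie apart, from -1.25 against -0.50 on average for E2F5 minus E2F4 to -0.14 against 0.16 for TFDP2 minus TFDP1, and the pairs were chosen after the values were known, so they are a description without a test.

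These differences within an array are free of any shift of the whole array, such as that of scramble replicate 2. The largest was that of E2F5 against E2F4, where the mean was -1.25 ± 0.04 (SD, n = 3) with miR-34c and -0.50 ± 0.06 with the scramble mimic. E2F5 minus E2F3 was -0.67 ± 0.04 with miR-34c and 0.0043 ± 0.07 with the scramble mimic. Each pair holds a gene called by the test, and pairs were chosen with that known.

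**Figure D4:**
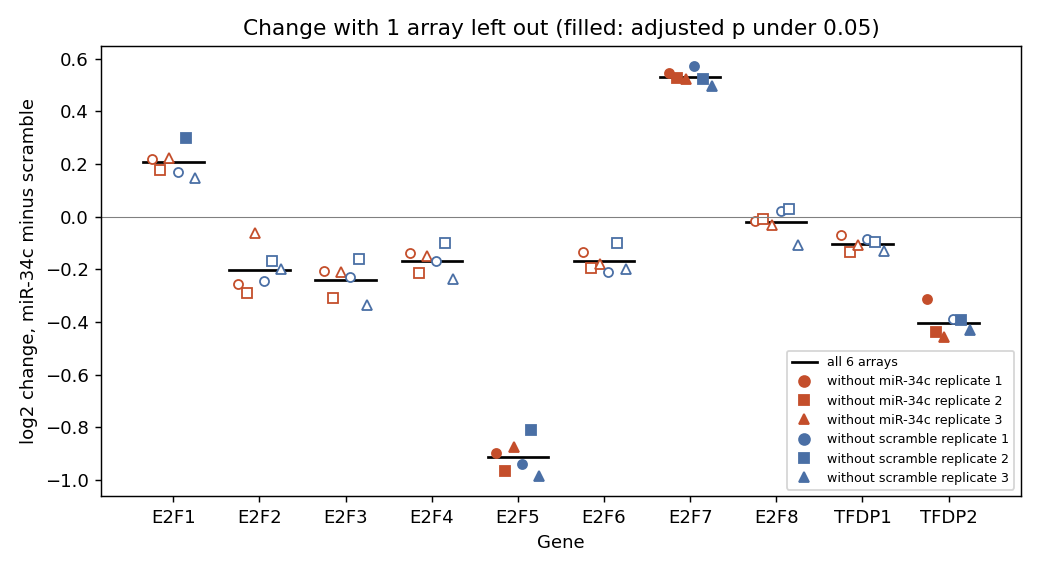
The log2 change of each gene (vertical axis) with all 6 arrays (black line) and with 1 array left out (symbols; red for a miR-34c array left out, blue for a scramble array; filled where the limma adjusted p was under 0.05). E2F5 and E2F7 stay filled throughout, TFDP2 is open without scramble replicate 1, and E2F1 is filled only without scramble replicate 2.

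E2F genes are known to carry E2F sites in their own promoters, so the promoters of the activators and of E2F7, the member that rose, are shown. They are the 250 bases before the annotated start, from RefSeq on GRCh38.p14, 5′ to 3′ on the strand of the gene. Capitals mark matches on either strand to the letters TTTNNCG with only C or G at either N, a core of the E2F consensus that was chosen after the promoters had been seen. E2F1 is at chr20:33686386-33686635, minus strand, E2F2 at chr1:23531234-23531483, minus strand, E2F3 at chr6:20401629-20401878, plus strand and E2F7 at chr12:77065570-77065819, minus strand.
E2F1 promoter: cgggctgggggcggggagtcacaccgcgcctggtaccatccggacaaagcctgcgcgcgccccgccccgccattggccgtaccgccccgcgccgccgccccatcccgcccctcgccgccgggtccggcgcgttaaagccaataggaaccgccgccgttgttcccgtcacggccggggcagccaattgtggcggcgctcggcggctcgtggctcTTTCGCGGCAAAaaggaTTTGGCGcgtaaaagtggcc
E2F2 promoter: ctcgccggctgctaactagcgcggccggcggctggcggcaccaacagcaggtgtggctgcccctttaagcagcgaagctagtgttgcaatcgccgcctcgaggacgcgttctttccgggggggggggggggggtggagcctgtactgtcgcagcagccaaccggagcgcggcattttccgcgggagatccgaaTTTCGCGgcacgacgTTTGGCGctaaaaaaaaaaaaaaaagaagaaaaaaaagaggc
E2F3 promoter: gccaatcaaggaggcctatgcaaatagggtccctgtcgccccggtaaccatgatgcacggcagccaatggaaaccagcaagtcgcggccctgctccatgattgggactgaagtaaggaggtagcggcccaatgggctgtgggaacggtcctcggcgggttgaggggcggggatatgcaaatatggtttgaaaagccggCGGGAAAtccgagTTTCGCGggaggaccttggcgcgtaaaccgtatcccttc
E2F7 promoter: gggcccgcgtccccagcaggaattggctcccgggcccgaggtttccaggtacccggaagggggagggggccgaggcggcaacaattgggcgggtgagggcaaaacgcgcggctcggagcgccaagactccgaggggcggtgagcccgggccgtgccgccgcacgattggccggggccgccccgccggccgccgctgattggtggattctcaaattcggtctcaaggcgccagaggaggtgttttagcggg
The E2F1 promoter held 3 matches, of which 2 on opposite strands overlap, at 37 to 26 bases before the start, and the third begins 20 bases before it. E2F2 held 2 matches, beginning 57 and 42 bases before the start, and the upstream start of E2F3 held 2, beginning 52 and 39 bases before it. E2F6 held 2 matches and TFDP1 held 1, while the windows of E2F4, E2F7, TFDP2 and the second start of E2F3 held none of these letters. Counting each annotated start, a match was found in 5 of 11 promoters of the members (45.5%), which belong to 8 genes, and in 7.33% of all 35116 promoters of that length. At least 2 matches were found in 0.496% of them. Since the letters were chosen after the members' promoters had been seen, the share in the members describes these sequences and tests nothing. The promoters of E2F5 and E2F8 were not analysed here. The 3 activators with 2 or 3 matches had log2 changes of 0.21, -0.20 and -0.24, none called.

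The regulators upstream of the E2F factors changed in part, and counts in this and the following lists stand beside the 7.67% of all genes called higher and the 8.01% called lower. Of 9 measured pocket proteins and members of the MuvB complex, which joins E2F4 or E2F5 to repress genes in resting cells and later joins MYBL2 to activate them, 2 fell and 1 rose. RB1 had a log2 change of -0.0065, RBL1 of 0.07 and RBL2 of 0.05, each with an adjusted p of at least 0.692 by limma. The messenger of MYBL2, which encodes the B-MYB protein, fell to 0.677 of the scramble level, and that of LIN9, a core MuvB subunit, to 0.737. LIN37, another subunit, rose by 0.29 on the log2 scale (adjusted p = 0.0316), a call lost without any 1 array but scramble replicate 2 (adjusted p up to 0.112). LIN52 had a log2 change of 0.29 (adjusted p = 0.0658), and it was called without scramble replicate 2 (0.0151) and with each array centred on its median.

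Of 8 G1 cyclins and kinases 2 fell and none rose by limma, where 1 was higher at an unadjusted p under 0.05. CDK4 and CDK6, the kinases that phosphorylate RB1 with D cyclins, were at 0.707 and 0.741 times their scramble level and were called (limma adjusted p = 0.00373 and 0.00474). CCND1, cyclin D1, had a log2 change of -0.21 (adjusted p = 0.139), and CCNE2, cyclin E2 and an E2F target, one of 0.37 (adjusted p = 0.0905). CCNE2 passed without scramble replicate 1 (adjusted p = 0.0242). Of 6 measured CDK inhibitors none passed by limma, with 1 higher and 2 lower at an unadjusted p under 0.05 (median log2 change 0.08). The log2 change of CDKN1A, the p21 inhibitor, was 0.32 (adjusted p = 0.0665), and it passed without scramble replicate 2 (0.0189) and after arrays were centred on their medians.

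Messengers of proteins that act on E2F factors were mostly lower where they passed. Of 20 measured regulators 6 fell and 1 rose, with a median log2 change of -0.13. SKP2, the ubiquitin ligase subunit that binds E2F1 and marks p27, fell to 0.599 of the scramble level, and KAT2B, an acetyltransferase of E2F1, to 0.713. TRRAP, a scaffold of acetyltransferase complexes that E2F factors recruit, fell to 0.75, and TOPBP1, which binds E2F1 and restrains its apoptotic activity, to 0.759 of the scramble level. The call of TOPBP1 was lost without miR-34c replicate 3 (adjusted p = 0.0611). The count of falls was 3 without that array and 4 to 6 without any other, and the rise, that of PRMT5 (named after its value was seen), was lost without any array other than scramble replicate 2.

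**Figure D5:**
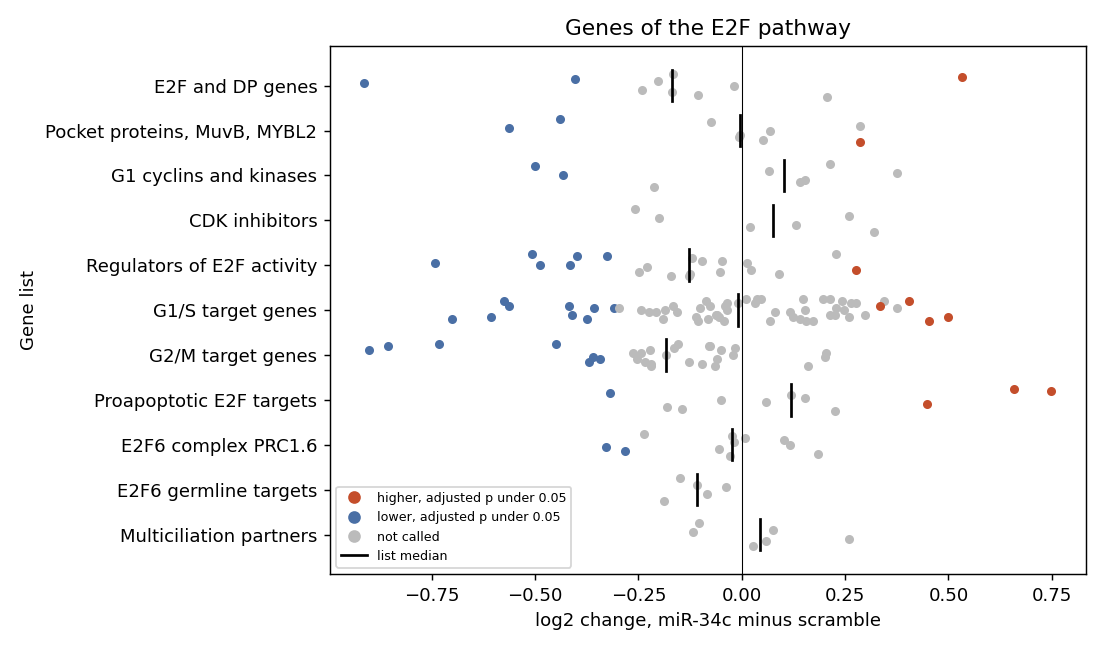
The log2 change (horizontal axis, miR-34c minus scramble) of each measured gene in 11 lists of the E2F pathway; points are genes, spread vertically for display only, red for called higher, blue for called lower and grey for not called, and the black bar is the list median. G1/S target genes lie on both sides of 0, and the called G2/M target genes all lie below 0.

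Of the 61 measured genes that E2F factors activate at the G1/S transition, 48 were not called. Of the others 9 fell (14.8%) and 4 rose (6.56%, near the share of all genes called higher), with a median log2 change of -0.0092. MCM3, a helicase subunit, fell to 0.672 of the scramble level and GINS1, a helicase cofactor, to 0.615, beside MYBL2. POLA2, which helps to start DNA synthesis, rose 1.41-fold. Leaving out 1 array gave 3 falls without miR-34c replicate 3 and 6 or 7 without any other, and 1 rise without miR-34c replicate 2, 2 without miR-34c replicate 1 or 3 or scramble replicate 1, 4 without scramble replicate 3 and 6 without scramble replicate 2. The sign of the median was positive with each array centred on its median (0.02).

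Some genes of G2 and mitosis that the MuvB complex governs fell. Of 29 measured, 7 fell and none rose by limma, none being higher at an unadjusted p under 0.05 either, with a median log2 change of -0.18 and 26 negative values. PLK1, a mitotic kinase, fell to 0.536 of the scramble level, FOXM1, the transcription factor that works with MuvB in G2, to 0.553, TOP2A, which untangles chromosomes, to 0.602, and CDC25C, the phosphatase that activates CDK1, to 0.78. The number of falls was 5 to 7 when any 1 array was left out.

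Among 11 measured proapoptotic genes that E2F1 can activate, 3 rose and 1 fell. PMAIP1, which encodes NOXA, was 1.68-fold higher, CASP8, an initiator caspase, 1.58-fold higher, and BCL2L11, which encodes BIM, 1.36-fold higher (limma, the highest adjusted p being 0.0106 for BCL2L11). TP53INP1 fell to 0.803 of the scramble level (adjusted p = 0.04), but did not pass without any 1 array other than scramble replicate 3 (adjusted p up to 0.161). TP73 and APAF1, well known E2F1 targets, had log2 changes of 0.06 and 0.23 without passing, though APAF1, chosen after its value was seen, passed without scramble replicate 2 (adjusted p = 0.0316).

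Of the 11 measured subunits of PRC1.6, the Polycomb complex that E2F6 joins, YAF2 fell to 0.797 of the scramble level and MGA, which pairs with MAX on DNA, to 0.822. These calls were close to the threshold (limma adjusted p = 0.0431 and 0.0471). That of YAF2 was lost without any 1 array but miR-34c replicate 2, and that of MGA without any 1 array (adjusted p up to 0.161 and 0.156). Neither passed after arrays were centred on their medians. None of 5 germline genes that E2F6 silences passed (smallest limma adjusted p = 0.351, for MAEL), with log2 changes between -0.19 and -0.04. Nor did any of 6 measured partners of E2F4 and E2F5 in forming multiple cilia (smallest adjusted p = 0.42, for PLK4). In neither list was any gene under an unadjusted p of 0.05.

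By the root mean square difference over the 6 arrays, after each gene was centred on its own mean, the profiles nearest to that of E2F7 were those of ENO4 (0.0132), CFAP119 (0.0336) and H2BC13 (0.0337). Those nearest to E2F5 were VPS4A (0.0401), RPSAP52 (0.0674) and N4BP2 (0.0701). All 6 genes were called in the direction of the member they resembled, with log2 changes from 0.52 to 0.57 for the first 3 and from -0.92 to -0.82 for the others. The 6 arrays form 2 groups, so genes with a group difference of like size are near by construction.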

How the data were processed

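Per the labels' protocols, total RNA was extracted with Trizol and turned into labelled cDNA with a whole-transcript Affymetrix kit. The deposited log2 values were made by the authors with RMA in Affymetrix Expression Console, per the submitters' processing notes, and then centred per probe set in a step not given in the sources used here, as is the genome build. A common reference cancels between groups.

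Of 28868 probe sets, 19309 carry 1 gene symbol. Where a gene had several (685 genes), the one with the highest mean of the centred values was kept, which is not a choice by signal. The test was limma 3.58.1 in R 4.3.3 (lmFit with the group as the only term, eBayes with trend, Benjamini-Hochberg adjustment over 18376 genes, threshold 0.05), tested on simulated data. There it recovered 8% of 1.25-fold, 72% of 1.5-fold and 94% of 2-fold changes (50 genes each), with 10 false calls. Far fewer genes were changed in the simulation than the 2881 called in the data. Its adjustment was therefore stricter, and these shares need not hold for the data. The 7 members not called had estimated changes below 1.25-fold. Some genes with changes of that size were called, such as LIN37 (1.22-fold). Not passing the test does not show that the 7 members were unchanged. No arrays held identical values. Folds are back-transformed log2 changes. As the values are centred, the trend of the variance was fitted on centred means and not on signal. Without the trend the limma adjusted p was 0.000585 for E2F5, 0.00191 for E2F7 and 0.0181 for TFDP2.

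The members, gene lists and tests were chosen with earlier results of these data known. Named genes are all members, up to 4 of each list by adjusted p, their direct partners, and the 3 nearest profiles of the top member in each direction. Of 64 listed G1/S targets 61 were measured, and sizes given for all lists are of measured genes. Alternatives were a block for the replicate number, a prior without trend, a robust prior, median-centred arrays, renewed quantile normalization, array weights, averaged probe sets, all probe sets, only the more variable genes, and the omission of each array.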

Additional observations from a re-analysis of the deposited data

How the results depend on the processing

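E2F5 and E2F7 kept their direction and their call under all 15 alternatives, with log2 changes from -1.11 to -0.81 and from 0.50 to 0.57. Several of these leave a member's log2 change as it was by construction, so only the call could differ there. They are the block, the other priors, averaged or all probe sets, and the more variable genes. The variance behind that last choice includes the difference between the groups. TFDP2 kept both under all but the omission of scramble replicate 1, given above, and its log2 change ran from -0.46 to -0.31. When any 1 array was left out, 1 to 2 members were called higher and 1 to 2 lower. The second rise was that of E2F1, without scramble replicate 2. Over all genes, 1409 were called higher and 1472 lower, and leaving out 1 array gave 841 to 1572 higher and 758 to 1373 lower. The counts were 841 and 842 without miR-34c replicate 2, and 897 and 758 without miR-34c replicate 3. Fewer samples enter the fit under every omission, and without scramble replicate 2 the counts were 1572 and 1080. E2F8 changed sign after median centring of the arrays (0.012) and without scramble replicates 1 and 2, its values running from -0.11 to 0.028 over the omission of each array, and passed in none of these. Arrays with the same replicate number did not deviate together: the correlations of their deviations from the group means were -0.0051, 0.118 and -0.0852 for numbers 1 to 3, and not every array correlated best with its own number, so the numbers were not taken as pairs. With the replicate number as a block, 1327 genes were called higher and 1348 lower, and the members called were 1 higher and 2 lower. E2F4, E2F6, E2F8 and TFDP1 were not among the more variable genes and have no value there. Precision rests on 3 arrays per group, and signal over background is not shown by centred values.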
